A study of Arabidopsis thaliana with 10 samples.

Results

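The transcripts described here are those of 10 genes of ethylene synthesis in Arabidopsis thaliana, out of 33322 loci with counts. They were taken by locus identifier: 8 genes of ACC synthase, namely ACS2, ACS4, ACS5, ACS6, ACS7, ACS8, ACS9 and ACS11, and 2 genes of ACC oxidase, of which AT2G19590 (ACO1) is described. The study compared whole seedlings of the Columbia background that lack 1 or more of the transcription factors PIF1, PIF3, PIF4 and PIF5. There were 10 genotypes with biological replicates A, B and C each: wild type (WT), the single mutants pif1, pif3, pif4 and pif5, the triple mutants pif345, pif145, pif135 and pif134, and the quadruple mutant pifq. Each triple mutant is named for the factors it lacks, so pif345 has PIF1 left, pif145 has PIF3, pif135 has PIF4 and pif134 has PIF5. All 10 groups were treated alike: stratified seeds received white light for 3 h and far-red light for 15 min, and the seedlings then stood for 48 h in darkness at 21 °C.

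Ethylene is made from S-adenosylmethionine. ACC synthases turn this into ACC, which is usually the limiting step, and ACC oxidases turn ACC into ethylene. In dark-grown seedlings ethylene tightens the apical hook and holds back elongation of the hypocotyl. PIFs are basic helix-loop-helix factors that keep seedlings in the dark-grown habit until phytochromes activated by light have them degraded, and they bind the DNA motifs called G-box and PBE-box.

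ACC synthases are commonly grouped by their carboxyl-terminal tail. ACS2 and ACS6 have a tail that the stress-activated kinases MPK3 and MPK6 phosphorylate, which makes the enzymes longer-lived. ACS4, ACS5, ACS8 and ACS9 have a tail by which ETO1 and its relatives EOL1 and EOL2 bring them to degradation. ACS7 has a very short tail and is turned over with the ubiquitin ligase XBAT32. RNA counts, as given here, measure none of this control of the proteins.

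ACS5 (AT5G65800) lies on chromosome 5 at 26330746 to 26332812 on the minus strand with 3 annotated exons. ACS8 (AT4G37770) lies on chromosome 4 at 17752079 to 17754157 on the plus strand with 4 exons. The 300 bases before the annotated start of each gene are shown because these were the 2 members with the lowest levels in pifq relative to WT. They were also the 2 of the 10 members with the letters of a PBE-box in that window. The letters searched were CACATG, or CATGTG when read from the other strand, and they stand in capitals. Positions and sequence are from RefSeq's TAIR10.1 assembly, at chr5:26332813-26333112 on the minus strand for ACS5 and chr4:17751779-17752078 on the plus strand for ACS8.
ACS5 upstream: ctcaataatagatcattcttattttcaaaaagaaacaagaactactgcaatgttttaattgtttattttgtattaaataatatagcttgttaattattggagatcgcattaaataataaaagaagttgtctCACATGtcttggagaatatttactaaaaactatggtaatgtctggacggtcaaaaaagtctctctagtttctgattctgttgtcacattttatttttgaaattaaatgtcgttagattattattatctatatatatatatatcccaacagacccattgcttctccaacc
ACS8 upstream: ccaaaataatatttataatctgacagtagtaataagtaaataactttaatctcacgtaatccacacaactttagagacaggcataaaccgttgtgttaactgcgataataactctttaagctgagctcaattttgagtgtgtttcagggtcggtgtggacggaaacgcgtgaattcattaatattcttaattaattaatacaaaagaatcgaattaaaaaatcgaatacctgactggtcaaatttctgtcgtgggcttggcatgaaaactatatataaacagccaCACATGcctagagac
The PBE-box letters lay 164 to 169 bases before the start of ACS5 and 10 to 15 bases before the start of ACS8. Of 27443 protein-coding genes, 13.1% had them within 300 bases before the start. The G-box letters CACGTG, which read the same on both strands, stood in that window of none of the 10 members and of 7.10% of the protein-coding genes. Within 1000 bases, ACS2 had 1 G-box, at 934 to 939 bases, and 3 PBE-boxes, while ACS9 had 1 PBE-box, at 450 to 455 bases. In that longer window 14.8% of the protein-coding genes had a G-box and 37.7% a PBE-box. A match of letters is a description of the sequence, not a binding site.

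Libraries held 19.0 M to 70.8 M counts, with a median of 25.2 M. Levels are given as CPM, the count of a gene per 1 M counts of its library after TMM scaling. Reads came from 3′ ends, so levels of different genes can be set side by side without a correction for length. The labels were checked on the deleted genes. PIF3 averaged 73.8 CPM in WT, 1.91 in pif3 and 1.93 in pifq. PIF1 averaged 25.0 CPM in WT and 1.61 in pif1, but 63.1 in the libraries labelled pif134, where the label calls for its loss. These libraries are therefore called by their label throughout, and on these counts PIF5 is not shown to be the only PIF left in them. PIF1 was also uneven in 2 other triple mutants that lack it by label, at 3.04, 5.07 and 14.9 CPM in pif145 A, B and C and at 12.4, 2.28 and 2.43 CPM in pif135 A, B and C, against 20.7 to 31.8 CPM in WT. PIF5 had 7.39, 7.02 and 6.965 CPM in WT A, B and C, 0 to 0.592 CPM in pif5 and 0.434 to 0.519 CPM in pifq. In the libraries labelled pif134, which have PIF5 left by label, it had 16.0, 24.9 and 17.4 CPM. PIF4 averaged 11.8 CPM in WT and 18.8 in pif4, so its count gives no check of that label. All 10 markers of root hair, epidermis, phloem, mesophyll and seed reserves chosen to check the whole-seedling label had counts in every genotype. The root hair marker PRP3 was near the floor in the libraries labelled pif134, with 1, 0 and 1 counts in A, B and C. In whole seedlings fewer cells of a type and less RNA per cell cannot be told apart. Differences were tested with edgeR's quasi-likelihood test over all 30 libraries. Loci with low counts were filtered out, which left 18680, among them 7 of the 10 members. A call means a Benjamini-Hochberg adjusted p under 0.05 over those loci, and ± after a log2 fold change is its standard error.

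Levels within a replicate letter were not independent. Within WT and the single mutants, and again within the triple mutants and pifq, libraries of the same letter deviated together. ACS8 was highest in replicate A and lowest in B in 5 of 5 genotypes of WT and the single mutants, and ACS5 was lowest in B in 5 of 5. ACS6 was highest in B in 5 of 5 of the triple mutants and pifq, at 1.54 to 3.29 times the median of the genotype. ACO1 was highest in B in 5 of 5 of WT and the single mutants. For this reason values from a fit with the replicate letter as a block within each of these 2 sets are given beside a result whose call they change. The labels name no batch, and where pifq or a triple mutant is set against WT, genotype and set cannot be told apart.

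ACS5 and ACS8 RNA fell in the quadruple mutant relative to WT. ACS5 averaged 4.18 ± 1.59 CPM in WT and 0.627 ± 0.418 in pifq (SD, n = 3). ACS8 averaged 3.15 ± 1.496 CPM in WT and 0.635 ± 0.0659 in pifq (SD, n = 3). They were the 2 members called in pifq against WT, both lower, out of 7 tested. Of all loci tested 15.2% were called in this comparison, and 7.17% were called lower. The median log2 fold change of the 7 members was 0.30, against -0.01 over all loci tested.

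ACS5 had 5.38, 2.38 and 4.80 CPM in WT A, B and C, and 0.266, 1.08 and 0.531 CPM in pifq A, B and C. The lowest WT library stood above the highest pifq library. Behind these levels were 131, 111 and 146 counts in WT and 6, 23 and 11 in pifq. This gave ACS5 a log2 fold change of -2.73 ± 0.52 with an adjusted p of 0.000482. ACS8 had 4.64, 1.65 and 3.15 CPM in WT A, B and C, and 0.620, 0.708 and 0.579 CPM in pifq. Again the groups did not overlap. The counts were 113, 77 and 96 in WT and 14, 15 and 12 in pifq. For ACS8 the log2 fold change was -2.29 ± 0.46 with an adjusted p of 0.000902. Over 38 alternatives, which were other settings and the leaving out of each of the 30 libraries, ACS5 stayed between -3.39 and -2.36 and ACS8 between -2.61 and -1.90. Both calls held in each of the 38. ACS5 and its relative ACS9 are similar genes, and how reads with several hits were counted is not given in the sources used here.

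Markers of tissues also differed between pifq and WT. Summed over the 3 root hair markers, the level was 12.4 to 19.6 CPM in WT libraries and 0.664 to 4.91 CPM in pifq, and 2 of 3 were called lower. Summed over the 2 mesophyll markers it was 958 to 1760 CPM in WT and 5960 to 13600 in pifq, and 2 of 2 were called higher. The 2 seed reserve markers summed to 274 to 413 CPM in WT and 14.1 to 97.8 in pifq, with 1 of 2 called lower. No marker of epidermis (2 tested) or phloem (1 tested) was called, and no marker summed to 0 over a group. Their part in the ACS5 and ACS8 values was not tested.

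**Figure D1:**
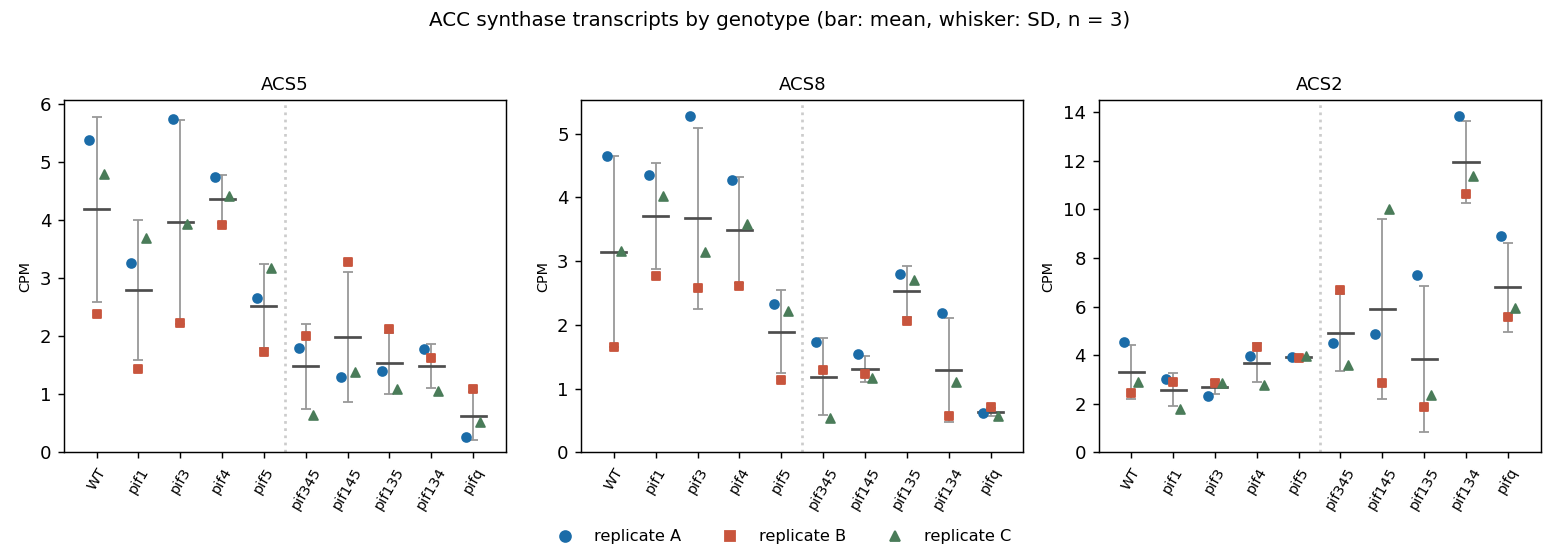
ACS5, ACS8 and ACS2 transcript levels in CPM (linear axis from 0) for each of 30 libraries, by genotype, with symbols for replicates A, B and C. Horizontal bars are means and whiskers SD of 3 replicates (cut at 0), and the dotted line parts WT and single mutants from triple mutants and pifq. In pifq the ACS5 mean was 0.627 and the ACS8 mean 0.635 CPM, and ACS2 reached its highest mean, 11.9 CPM, in the libraries labelled pif134.

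Loss of a single PIF gave no call in either gene or in any other member. Of all loci tested, 3.76% were called in pif1, 0.112% in pif3, 0.0589% in pif4 and 0.128% in pif5, and 3.97% in at least 1 of the 4. At an unadjusted p under 0.05, 1 member passed in pif1 and 0 in pif3, pif4 and pif5. Of all 18680 loci 3674, 767, 676 and 2385 did so. ACS5 averaged 2.79 CPM in pif1, 3.96 in pif3, 4.36 in pif4 and 2.52 in pif5. ACS8 averaged 3.71 CPM in pif1, 3.67 in pif3, 3.49 in pif4 and 1.90 in pif5. The libraries of each single mutant overlapped with those of WT in both genes. In pif5 the ACS8 levels of 2.33, 1.14 and 2.22 CPM gave a log2 fold change of -0.71 ± 0.42 with an adjusted p of 0.482.

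Among the triple mutants, ACS5 was called lower in pif135 and in the libraries labelled pif134, and ACS8 was called lower in the latter. In all, 12.6% of loci were called in pif135, 16.9% in the libraries labelled pif134, 3.9% in pif345 and 12.1% in pif145. Loci called lower made up 5.77% in pif135 and 7.79% in the libraries labelled pif134, where 9.12% were called higher, and 25.1% of loci were called in at least 1 triple mutant. Of the 7 members tested, 1 was called in pif135 (lower), 3 in the libraries labelled pif134 (1 higher and 2 lower), and 0 in pif345 and pif145, where 2 members each passed at an unadjusted p under 0.05, as did 3399 and 5020 of all 18680 loci. The median log2 fold changes of the members were -0.53 in pif345, -0.42 in pif145, -0.31 in pif135 and 0.32 in the libraries labelled pif134, and over all loci they lay between -0.02 and 0.03. All triple mutants and pifq were compared with the same 3 WT libraries. Tissue markers moved in the triple mutants as well. The root hair markers summed to 3.61 to 6.8 CPM in pif345, 1.75 to 5.64 in pif145 and 4.85 to 10.4 in pif135, against 12.4 to 19.6 in WT, with 2, 2 and 1 of 3 called lower. The mesophyll markers summed to 2140 to 3950 CPM in pif345, 4640 to 7420 in pif145 and 5300 to 8520 in pif135, against 958 to 1760 in WT, with 1, 2 and 2 of 2 called higher. Of the 2 seed reserve markers 1 was called lower in pif145 and pif135 and 0 in pif345. In the libraries labelled pif134 the root hair markers summed to 0.264 to 0.574 CPM, with 3 of 3 called lower. There the mesophyll markers summed to 3920 to 8320 CPM, with 2 of 2 called higher, and 1 of 2 seed reserve markers was called lower. The part of these markers in the ACS5 and ACS8 values of the triple mutants was not tested.

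ACS5 levels were 1.80, 2.00 and 0.640 CPM in pif345 and 1.30, 3.27 and 1.38 in pif145, in the order A, B and C. They were 1.40, 2.12 and 1.09 CPM in pif135 and 1.78, 1.63 and 1.06 in the libraries labelled pif134. All triple mutant libraries but pif145 B stood below the lowest WT library. The log2 fold changes against WT were -1.42 ± 0.47 in pif135 (adjusted p = 0.0451) and -1.48 ± 0.48 in the libraries labelled pif134 (adjusted p = 0.0325). They were -1.49 ± 0.47 in pif345 (adjusted p = 0.0746) and -1.07 ± 0.47 in pif145 (adjusted p = 0.135). With the replicate block within each set, pif345 (adjusted p = 0.00205) and pif145 (log2 fold change -1.10, adjusted p = 0.00751) were called too. Both comparisons cross the sets, where the p of this block tends to be too small. In that fit 16.5% of all loci were called in pif345, 29.6% in pif145, 29.3% in pif135 and 32.5% in the libraries labelled pif134.

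The calls of ACS5 in triple mutants lay close to the threshold. In pif135 the call was lost without WT A, WT C, pif135 A, pif135 C, pif3 C, pif4 B or pif5 C, with adjusted p from 0.0507 to 0.168 and log2 fold changes from -1.43 to -1.21. Scaling by total counts alone gave 0.0516. In the libraries labelled pif134 it was lost without WT A, WT C, pif134 B or pif134 C, with adjusted p from 0.0838 to 0.127 and log2 fold changes from -1.55 to -1.26. Calls were gained in pif345 without WT B (adjusted p = 0.0460) and in pif145 without pif145 B (log2 fold change -1.65, adjusted p = 0.0438). In pif345 a call was also gained by DESeq2 (adjusted p = 0.0323) and with the block over all libraries (adjusted p = 0.0448).

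Among the triple mutants, ACS8 had its highest mean in pif135. In pif135, which has PIF4 left, ACS8 had 2.80, 2.07 and 2.71 CPM in A, B and C, within the range of WT, with a log2 fold change of -0.31 ± 0.41 (adjusted p = 0.669). The levels were 1.73, 1.29 and 0.534 CPM in pif345, 1.54, 1.23 and 1.17 in pif145, and 2.18, 0.576 and 1.11 in the libraries labelled pif134. Except for pif345 A and pif134 A, these 9 libraries stood below the lowest WT library. The log2 fold change against WT was -1.29 ± 0.44 in the libraries labelled pif134 (adjusted p = 0.0407), -1.40 ± 0.43 in pif345 (adjusted p = 0.0651) and -1.24 ± 0.43 in pif145 (adjusted p = 0.0572). With the replicate block within each set, pif345 (-1.36, adjusted p = 0.00410) and pif145 (-1.17, adjusted p = 0.00564) were called too.

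These ACS8 values also lay close to the threshold. The call in the libraries labelled pif134 was lost without WT A, WT C, pif134 B or pif134 C (adjusted p from 0.0889 to 0.249, with the log2 fold change as small as -0.90). It was also lost with only the 2 groups in the fit (adjusted p = 0.135). A call was gained in pif345 without WT B, pif134 A or pif134 B (adjusted p from 0.0319 to 0.0486). In pif145 it was gained without WT B, pif134 A, pif134 B or pif345 C (adjusted p from 0.0248 to 0.0442). DESeq2 also called pif345 (adjusted p = 0.0279) and pif145 (adjusted p = 0.0308). The block over all libraries gave adjusted p of 0.0109 and 0.0118, and leaving out all libraries labelled pif134 gave 0.0440 and 0.0387. Total counts alone called pif145 (adjusted p = 0.0408).

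The comparison of pifq with each triple mutant addresses what the PIF left by label maintains, within a single set of libraries. For the libraries labelled pif134, with their PIF1 counts, that reading is limited. It is limited for pif145 and pif135 too, where PIF1 reached 14.9 CPM in pif145 C and 12.4 CPM in pif135 A. ACS8 was called lower in pifq than in pif135, and it was the 1 member called there, against 0.696% of all loci, or 0.509% called lower. No member was called in pifq against pif345, pif145 or the libraries labelled pif134, where 2.75%, 0.551% and 1.35% of loci were called. Against at least 1 of the 4 triple mutants 4.15% of loci were called. At an unadjusted p under 0.05, 1 member passed against pif345 and 3 against each of pif145, pif135 and the libraries labelled pif134. Of all 18680 loci 2548, 1515, 2353 and 1543 did so, in the same order. All 3 pif135 libraries, at 64, 87 and 67 counts, stood above all 3 pifq libraries, at 14, 15 and 12. The fitted log2 fold change of ACS8 was -1.98 ± 0.46 with an adjusted p of 0.0431. Against the other triple mutants it was -0.89 (pif345), -1.05 (pif145) and -0.999 (libraries labelled pif134), with adjusted p of 0.418, 0.574 and 0.595.

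The ACS8 call against pif135 was close to the threshold. It was lost in 13 of the 30 fits that left out 1 library, with adjusted p from 0.05001 to 0.262: those without WT C, pif1 A, pif1 C, pif4 A, pif4 C, pif5 A, pif5 C, pif135 B, pif135 C, pif134 C, pifq A, pifq B or pifq C. It was also lost with only the 2 groups in the fit (adjusted p = 0.142). The log2 fold change stayed between -2.08 and -1.89 in those 13 fits.

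ACS5 was lower in pifq than in each triple mutant by -1.24 to -1.66 on the log2 scale, with no call. The values were -1.24 ± 0.53 against pif345 (adjusted p = 0.272), -1.66 ± 0.53 against pif145 (adjusted p = 0.271), -1.31 ± 0.52 against pif135 (adjusted p = 0.260) and -1.25 ± 0.54 against the libraries labelled pif134 (adjusted p = 0.469). With the replicate block within each set all 4 were called, with adjusted p of 0.0279, 0.0125, 0.0307 and 0.0491. In that fit 10.4%, 2.11%, 6.49% and 3.35% of all loci were called in these comparisons.

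**Figure D2:**
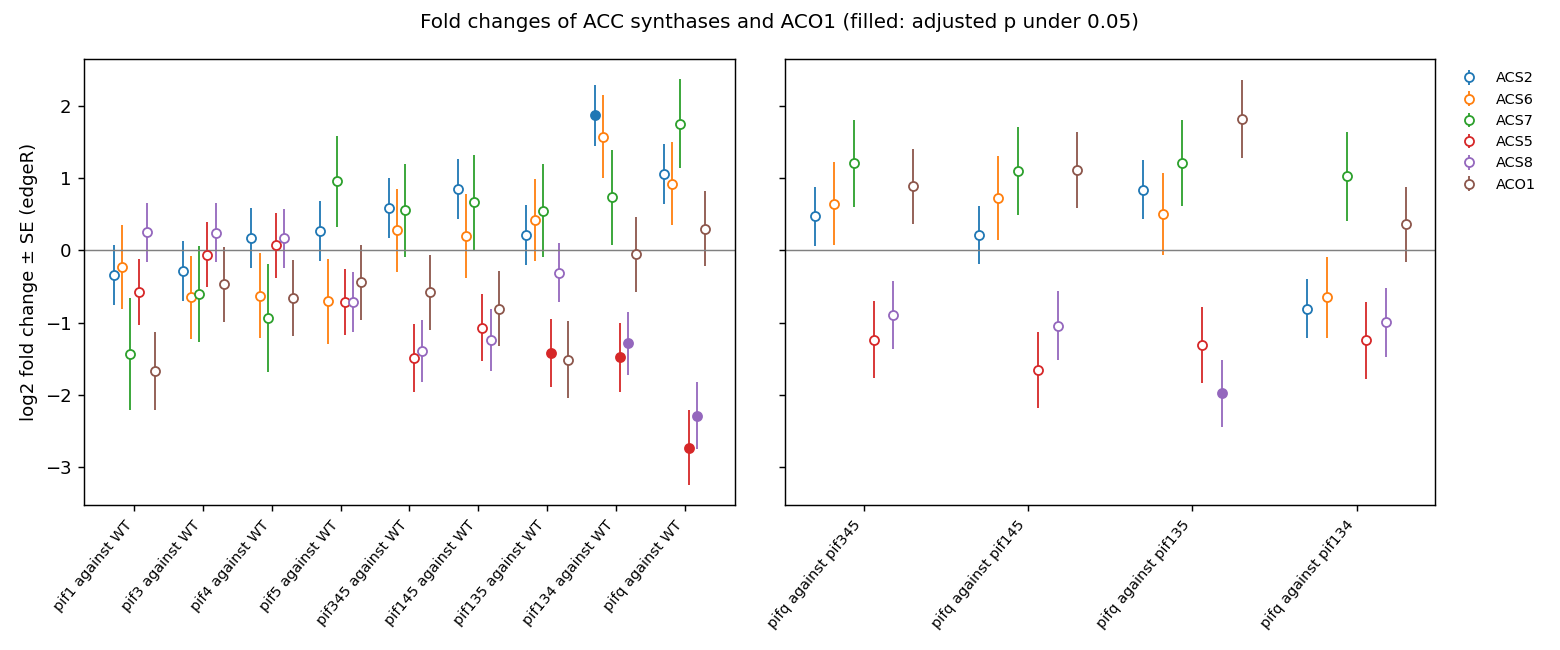
Log2 fold changes of ACS2, ACS6, ACS7, ACS5, ACS8 and ACO1, with whiskers of 1 standard error, for 9 mutants against WT (left) and for pifq against 4 triple mutants (right). Filled points have an adjusted p under 0.05. Filled points are ACS5 and ACS8 in pifq, ACS5 in pif135, ACS5, ACS8 and ACS2 in the libraries labelled pif134, and on the right ACS8 against pif135.

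ACS2 RNA was higher than in WT in the libraries labelled pif134. ACS2 (AT1G01480, chromosome 1 at 175706 to 178406, plus strand) had 4.56, 2.44 and 2.89 CPM in WT A, B and C and 13.8, 10.6 and 11.4 in the libraries labelled pif134. Every one of these stood above all WT libraries, and above all other libraries of the series. Against WT the log2 fold change was 1.86 ± 0.42 with an adjusted p of 0.00191, and it stayed between 1.69 and 2.16, and called, under 37 alternatives. The 10 genotypes were also ordered by their mean. Only the neighbours pifq (6.80 CPM) and the libraries labelled pif134 (11.9 CPM) differed by more than their SDs added together. In the libraries labelled pif134 the 3 root hair markers summed to 0.264 to 0.574 CPM, with 3 of 3 called lower. The 2 mesophyll markers summed to 3920 to 8320 CPM, with 2 of 2 called higher. The 2 seed reserve markers summed to 2.48 to 27.5 CPM, with 1 of 2 called lower. The root hair marker PRP3 had 0 counts in replicate B and 1 each in A and C. Their part in the ACS2 values was not tested.

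In pifq, ACS2 had 8.90, 5.57 and 5.93 CPM, all above the WT libraries, and the log2 fold change was 1.05 ± 0.41 with an adjusted p of 0.0834. It was called with the replicate block within each set (1.04, adjusted p = 0.0417), with only the 2 groups in the fit (adjusted p = 0.0445), and without pif135 A (adjusted p = 0.0376). The spread was wide in pif145, at 4.86, 2.84 and 10.01 CPM, and in pif135, at 7.30, 1.88 and 2.35 CPM. In both, the library highest in ACS2 was also the one highest in PIF1, whose part in these values was not tested. Without pif135 A, ACS2 was called higher in pifq than in pif135 (log2 fold change 1.70, adjusted p = 0.0168). With it the value was 0.84 ± 0.41, with an adjusted p of 0.401. In the single mutants ACS2 lay between 1.79 and 4.32 CPM, overlapping with WT.

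ACS6, the other synthase stabilised by MPK3 and MPK6, had its highest mean in the same libraries. ACS6 (AT4G11280, chromosome 4 at 6863979 to 6866116, plus strand) had 4.89, 3.04 and 2.73 CPM in WT A, B and C, and 6.48, 20.1 and 4.86 in the libraries labelled pif134. The lowest of the latter was just below WT A, so the groups overlapped. Their log2 fold change was 1.57 ± 0.58 with an adjusted p of 0.0617. It was called with the replicate block within each set (1.32 ± 0.30, adjusted p = 0.00175), with the block over all libraries (adjusted p = 0.0394) and by DESeq2 (adjusted p = 0.0293). It was also called without pif134 A, pif134 C, pif345 B, pif345 C or pifq B, with adjusted p from 0.0331 to 0.0485.

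In pifq ACS6 had 3.72, 12.3 and 4.05 CPM, and the log2 fold change was 0.92 ± 0.57 (adjusted p = 0.304). The B libraries were high in the other triple mutants too, at 8.63 CPM in pif345, 6.30 in pif145 and 7.98 in pif135, while their A and C libraries lay between 1.60 and 4.08 CPM. In the single mutants all ACS6 levels lay between 1.40 and 3.48 CPM.

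ACS7 was the scarcest synthase that could be tested. ACS7 (AT4G26200, chromosome 4 at 13275200 to 13277188, plus strand) had 9, 6 and 8 counts in WT A, B and C, which is 0.370, 0.128 and 0.263 CPM, and 12, 29 and 12 counts in pifq, which is 0.531, 1.37 and 0.579 CPM. All pifq libraries stood above the WT libraries. The log2 fold change was 1.75 ± 0.62 with an adjusted p of 0.0538. It was called with the replicate block within each set (1.78, adjusted p = 0.0129), with the block over all libraries (adjusted p = 0.0308), by DESeq2 (adjusted p = 0.0429), and without pif1 B, pif1 C or pif5 C (adjusted p from 0.0319 to 0.0497). With the block within each set 32.4% of all loci were called in pifq against WT.

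Tested over all 10 genotypes together, 5 of the 7 members were called, against 26.7% of all loci. They were ACS8 (adjusted p = 0.000294), ACS2 (0.00107), ACS5 (0.00126), ACS7 (0.0154) and ACS6 (0.0232). ACO1 had an adjusted p of 0.0732, or 0.00103 with the replicate block within each set, a fit in which 7 members and 58.4% of all loci were called. Over WT and the single mutants 0 members were called, with 1 at an unadjusted p under 0.05, where 3399 of all 18680 loci passed, and 4.48% of loci called. Over the triple mutants and pifq 2 members were called, ACS8 (adjusted p = 0.0451) and ACS2 (0.0470), against 8.73% of loci. With the replicate block within each set 2 members, ACO1 and ACS7, were called over WT and the single mutants, against 23.5% of loci. In that fit 6 were called over the triple mutants and pifq, against 25.7% of loci.

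The 3 other synthases were too scarce for the filter. ACS4, whose RNA is known to rise with auxin, had 34 counts over the 3 libraries of pif135 (7, 12 and 15) and 3 in those of WT (0, 1 and 2). In the other genotypes its sum was between 2 and 14 counts, and 9 of the 11 counts in pifq came from replicate C. In a fit with no filter the log2 fold change in pif135 was 3.51 ± 0.91 with an adjusted p of 0.0116. ACS9 had 0 counts in 8 genotypes, 3 counts in pif3 and 4 in pif5, all 4 from replicate C. A count of 0 over the 3 WT libraries allows a level of up to 0.0296 CPM, from 3 counts, for counting error only. ACS11, another family member, had between 2 counts (the libraries labelled pif134) and 51 counts (pif3, of which 41 in replicate A, at 0.564 CPM), with 13 in WT and 6 in pifq. It was called in no comparison of the fit with no filter.

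**Figure D3:**
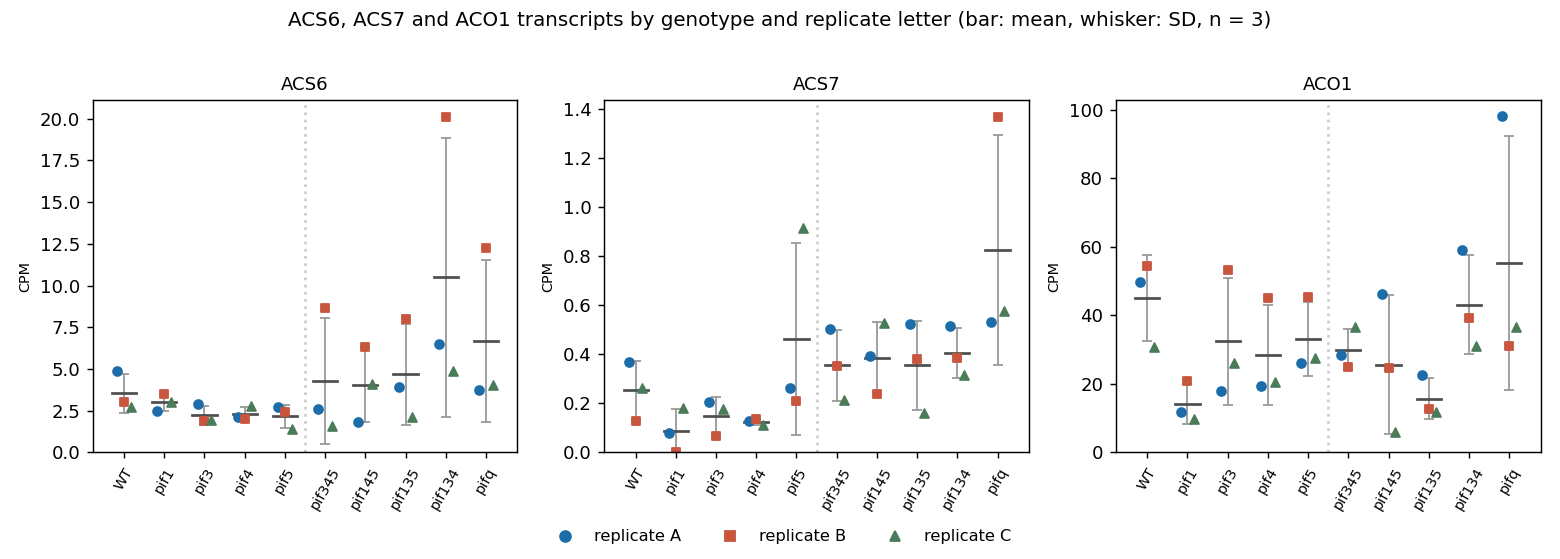
ACS6, ACS7 and ACO1 transcript levels in CPM (linear axes from 0, a different range in each panel) by genotype, with symbols for replicates A, B and C. Bars are means and whiskers SD of 3 replicates (cut at 0), and the dotted line parts WT and single mutants from triple mutants and pifq. ACS6 was highest in replicate B in 5 of 5 genotypes right of the line, and ACO1 in replicate B in 5 of 5 left of it.

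ACO1 (AT2G19590, chromosome 2 at 8475276 to 8477733, minus strand), an ACC oxidase, was called in none of the 9 comparisons with WT. It had its lowest means in pif1 and pif135. It had 49.9, 54.3 and 30.7 CPM in WT A, B and C, 11.8, 20.8 and 9.82 CPM in pif1, and 22.6, 12.8 and 11.8 CPM in pif135. Neither mutant overlapped with WT. The log2 fold change was -1.67 ± 0.54 in pif1 (adjusted p = 0.0750) and -1.52 ± 0.53 in pif135 (adjusted p = 0.0589). With the replicate block within each set both were called, pif1 at -1.74 ± 0.36 (adjusted p = 0.00174) and pif135 at -1.57 (adjusted p = 0.00206), and so was pif145 (-1.01, adjusted p = 0.0361). In that fit 19.6% of loci were called in pif1.

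Other settings moved these ACO1 calls as well. In pif1 a call was made with only the 2 groups in the fit (adjusted p = 0.0140), by DESeq2 (adjusted p = 0.0222) and without pif145 C (adjusted p = 0.0288). The block over all libraries gave 0.0238. In pif135 it was made with only the 2 groups in the fit (adjusted p = 0.00978) and by DESeq2 (adjusted p = 0.0241). The block over all libraries (adjusted p = 0.0258) and a fit with no filter (adjusted p = 0.04835) called it too. So did leaving out pif145 A, pif145 C, pif3 B or pifq A (adjusted p from 0.0244 to 0.0472). In pif145 the levels ran from 46.4 through 24.7 to 5.83 CPM in A, B and C, the lowest being in the library with the highest PIF1 count of pif145. In pif135 it was the other way, as replicate A was highest both in PIF1 (12.4 CPM) and in ACO1 (22.6 CPM). The part of PIF1 in these values was not tested. The spread was also wide in pifq, at 98.1, 31.1 and 36.6 CPM. There ACO1 differed from WT by 0.30 on the log2 scale (adjusted p = 0.745). Against pif135, pifq was at 1.82 ± 0.54 (adjusted p = 0.121), which was called with the block within each set (1.72, adjusted p = 0.00789) and without pif145 C (adjusted p = 0.0487). DESeq2 (adjusted p = 0.0277) and the block over all libraries (adjusted p = 0.0498) called it too.

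An interaction compares the loss of a PIF from WT with its loss from the triple mutant that by label has only this PIF left. For PIF5 that triple mutant is the libraries labelled pif134, whose PIF1 counts were above those of WT. For PIF3 and PIF4 it is pif145 and pif135, where PIF1 was uneven between the libraries. No member was called in any of the 4, against 0.653% of loci for PIF1, 0.219% for PIF3, 0.525% for PIF4 and 1.32% for PIF5, or 2.23% in at least 1. At an unadjusted p under 0.05, 2 members passed for PIF1, 3 for PIF3, 3 for PIF4 and 0 for PIF5. Of all 18680 loci 2962, 1108, 2316 and 2118 did so. For ACS8 the PIF4 interaction was 2.14 ± 0.62 (adjusted p = 0.109), which sets a log2 fold change of 0.16 in pif4 against WT beside the -1.98 of pifq against pif135. It was called with the replicate block within each set (2.21 ± 0.44, adjusted p = 0.00535), with total counts alone (adjusted p = 0.0436) and by DESeq2 (adjusted p = 0.0440). The block over all libraries called it too (adjusted p = 0.0142).

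The block within each set called more interactions. For PIF4 they were ACS5 (1.48, adjusted p = 0.0497, against 1.38 ± 0.69 and 0.425 with no block) and ACO1 (-2.48, adjusted p = 0.00620, against 0.122 with no block). For PIF1 they were ACO1 (-2.36 ± 0.51, adjusted p = 0.00426, against -2.55 ± 0.75 and 0.106 with no block) and ACS7 (-2.77, adjusted p = 0.0372, against -2.64 ± 0.98 and 0.192 with no block). Without pif145 C and with no block the PIF1 interaction of ACO1 had an adjusted p of 0.0445. DESeq2 gave 0.0286 for it, a fit of only the groups compared 0.0418 and the block over all libraries 0.0391. For the PIF4 interaction of ACO1, DESeq2 gave an adjusted p of 0.0379 and the block over all libraries 0.0495. In the blocked fit 13.4% of loci were called for PIF1 and 7.01% for PIF4.

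Of the reads of the 8 synthase genes, a smaller share came from ACS5 and ACS8 in pifq than in WT. The summed level of the 8 was 14.6 ± 5.06 CPM in WT and 15.8 ± 4.77 CPM in pifq (SD, n = 3), with the highest mean, 25.7 ± 7.28 CPM, in the libraries labelled pif134. ACS5 and ACS8 together made up 49.4% ± 8.19 of these reads in WT and 7.95% ± 1.49 in pifq (SD, n = 3). The WT libraries ranged from 40.8% to 57.1% and the pifq libraries from 6.27% to 9.13%. ACS2 and ACS6 together made up 47.8% ± 7.61 in WT, 85.2% ± 3.74 in pifq and 86.6% ± 5.28 in the libraries labelled pif134.

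In the single mutants the share of ACS5 and ACS8 was 51.4% in pif1, 56.8% in pif3, 55.3% in pif4 and 38.4% in pif5. In the triple mutants it was 22.0% in pif345, 24.8% in pif145, 31.1% in pif135 and 11.3% in the libraries labelled pif134. All 5 genotypes of WT and the single mutants thus had higher means than all 5 of the triple mutants and pifq. Single libraries overlapped across this divide, with 30.1% in pif5 B and 39.8% in pif135 C. These shares are a description with no test. The sum of 8 genes in a library rested on few reads, from 189 in pif345 C to 1249 in pif3 A. Over 3 libraries it ran from 885 in pif145 to 1895 in pif3.

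**Figure D4:**
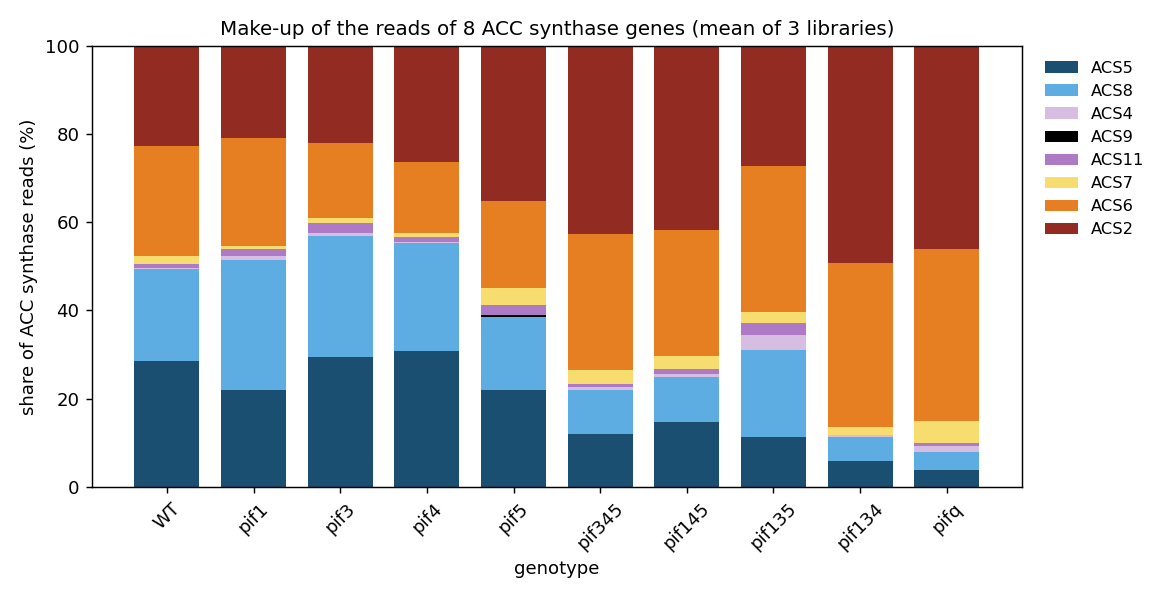
Make-up of the reads of 8 ACC synthase genes in percent, as the mean of 3 libraries for each of 10 genotypes, stacked by gene. The ACS5 and ACS8 segments (blue, at the bottom) made up 49.4% in WT and 7.95% in pifq, and the ACS2 and ACS6 segments (dark red and orange) 47.8% and 85.2%.

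Across the means of the 10 genotypes, ACS5 and ACS8 varied together (Pearson's r = 0.878 on log2 CPM), and so did ACS2 and ACS6 (r = 0.809). ACS8 varied opposite to ACS7 (r = -0.896) and to ACS2 (r = -0.807). The points are 10 genotypes that share the split into 2 sets and its replicate letters, so these values are given with no p. Among 12262 loci with a mean of at least 5 CPM, those most like ACS8 were IAA19 (r = 0.965), a repressor of auxin response, SAUR23 (r = 0.957), a small auxin up RNA, and AT2G38500 (r = 0.950). The mean level of IAA19 was 60.3 CPM in WT and 19.5 CPM in pifq. Most like ACS5 were AT1G08890 (r = 0.982), AT4G29100 (r = 0.971) and HFR1 (r = 0.971), a helix-loop-helix factor of shade responses at 69.0 CPM in WT and 4.86 in pifq. Most like ACS2 were AT1G70420 (r = 0.987), TSB1 (r = 0.983), a subunit of tryptophan synthase, and AT1G78850 (r = 0.980).

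Of 44 other genes of ethylene synthesis, signalling and response, 43 were tested. In pifq against WT 0 were called higher and 2 lower, while 15.2% of all loci were called and 7.17% called lower. The median log2 fold change of the 43 was 0.15. ACO5 (AT1G77330), a further ACC oxidase, fell by 2.86 on the log2 scale (± 0.45, adjusted p = 5.02e-05). Its levels were 768, 306 and 349 CPM in WT and 77.7, 59.5 and 58.7 CPM in pifq, without overlap. ACO5 was called lower in all 4 triple mutants too, with log2 fold changes of -1.83 in pif345, -2.15 in pif145, -2.09 in pif135 and -1.73 in the libraries labelled pif134. EDF3, an ethylene-responsive transcription factor, had a log2 fold change of -1.56 ± 0.36 in pifq (adjusted p = 0.00309), at 29.1 CPM in WT and 9.87 in pifq.

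In the libraries labelled pif134, 5 of the 43 were called higher and 1 lower. The share called higher was near that of all loci (9.12%), and the share called lower was below it (7.79%). Those called higher were ACO4, an ACC oxidase (log2 fold change 1.43, adjusted p = 0.0223), and ARD3, an enzyme of the methionine salvage cycle (2.68, adjusted p = 0.0110). The others were RTE1, which acts with the receptor ETR1 (0.95, adjusted p = 0.0316), EBF2, an F-box protein that degrades EIN3 (0.78, adjusted p = 0.0427), and ERF1, a target of EIN3 (1.83, adjusted p = 0.0198). None of the 43 was called in a single mutant. In pifq no gene for the turnover of ACC synthases (ETO1, EOL1, EOL2 and XBAT32) was called, and the one with the smallest p was EOL1 at -0.84 (adjusted p = 0.156). The same held for S-adenosylmethionine synthetases (SAM2 at -0.56, adjusted p = 0.390), the salvage cycle (ARD3 at 1.73, adjusted p = 0.104), receptors and signalling (RTE1 at 0.78, adjusted p = 0.0857) and further synthase-like genes (ACS10 at 0.53, adjusted p = 0.324).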

How the data were processed

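RNA was counted in whole seedlings, in 30 libraries of 10 genotypes with 3 biological replicates each. Per the labels, the authors made directional libraries of polyadenylated 3′ ends, each from 20 µg of total RNA, and ran technical duplicates that have no columns of their own. Per the submitters' processing notes, reads were aligned with Bowtie 0.12.7 to TAIR10. How reads were counted, and what was done with those of several hits, is not given in the sources used here. The deposited values are counts per locus. The deposited columns of pif3 B, pif5 C and WT B count as estimated counts (expected counts), because a last entry with no locus name has decimals there. All named values (100%) were whole, so rounding changed nothing. That entry, at most 0.0015% of a column's total, was left out.

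Loci passed filterByExpr at a minimum count of 10. All 30 libraries were fitted with genotype alone in edgeR 4.0.16 (R 4.3.3), with TMM scaling and the quasi-likelihood test, with Benjamini-Hochberg adjustment within each comparison. CPM used TMM-scaled library sizes. Standard errors were obtained by dividing the size of a log2 fold change by the root of its F value. The fit was tested on simulated counts drawn independently for each library. That test does not cover the deviations shared by libraries of the same replicate letter. Alternatives were other scaling, no filter, replicate blocks, fewer groups, DESeq2 1.42.0 and leaving out each library.

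Same-letter deviations from the genotype mean correlated above 0.1 for all 3 letters in 20 of 20 genotype pairs within WT and the single mutants or within the triple mutants and pifq. Between these sets they did so in 4 of 25 pairs (12262 loci). The pairing was read from the data and not from the labels.

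The members, the gene lists and the tests were chosen with earlier results of these data known. Results of 1 member are not reported here, though counts over the members include it. From each other ethylene list the rule took up to 3 genes called in pifq against WT with the largest fold change, or else the gene with the smallest p, and 3 loci most like each of the 3 members with the smallest adjusted p over all genotypes. Genes called in the libraries labelled pif134 outside this rule were named after their values were seen. Positions and sequences are from RefSeq's TAIR10.1, and the files give locus identifiers only.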

Additional observations from a re-analysis of the deposited data

How the results depend on the processing

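The 2 calls in pifq against WT held under every alternative. With the replicate block within each set the count there was 4. That comparison crosses the sets, where the p of this block tends to be too small. The count over the 4 single mutants was 0, and 1 (ACO1 in pif1) with the block over all libraries, with the block within each set, with only the groups compared and by DESeq2. Over the 4 triple mutants it was 3, and 5 with no filter, with either replicate block and by DESeq2. For pifq against the triple mutants it was 1, and 2 with the block over all libraries, 3 with the block within each set, 0 with only the groups compared and 2 by DESeq2. The test over all 10 genotypes called 5, and 7 with either replicate block. Over WT and the single mutants 0 became 2 with the block within each set. Over the triple mutants and pifq 2 became 1 with relative log expression scaling or total counts alone, 6 with the block within each set and 0 with only the groups compared. For the interactions 0 became 1 with total counts alone, 2 with the block over all libraries, 4 with the block within each set, 1 with only the groups compared and 2 by DESeq2. With the block within each set the share of all loci called rose too, from 15.2% to 32.4% in pifq against WT. It rose from 26.7% to 58.4% over all 10 genotypes and from 4.48% to 23.5% over WT and the single mutants. Over the triple mutants and pifq it rose from 8.73% to 25.7%. For settings other than this block, and with 1 library left out, such shares are not given here. The causes of these changes were not tested. With only the groups compared, fewer libraries estimate the spread.

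Leaving out 1 library gave counts of 2 to 3 in pifq against WT, 0 to 1 over the single mutants, 2 to 5 over the triple mutants, 0 to 2 for pifq against the triple mutants, 5 to 7 over all 10 genotypes, 0 to 0 over WT and the single mutants, 0 to 2 over the triple mutants and pifq, and 0 to 1 for the interactions. No followed fold change of a member changed sign in a call. Under settings other than leaving out a library, 312 followed values kept their side of the threshold, 51 gained a call and 3 lost it, and when 1 library was left out these numbers were 1356, 26 and 28. The DESeq2 test over several genotypes was not run, and leaving out the libraries labelled pif134 gives no value where they are compared.

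Depth limits the synthases: ACS4, ACS9 and ACS11 were too scarce to test, and ACS7 rested on 6 to 9 counts per WT library. A difference that missed the threshold in these genes is not shown to be absent.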
